A study of Mus musculus with 6 samples.

Results

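Condensins are ring-shaped ATPase complexes that fold chromatin into loops and give chromosomes their compact, rigid form for division. Condensin I and condensin II share an ATPase core made of SMC2 and SMC4, and each adds a kleisin that closes the ring (NCAPH in condensin I, NCAPH2 in condensin II) and a pair of HEAT-repeat subunits (NCAPD2 and NCAPG in condensin I, NCAPD3 and NCAPG2 in condensin II). In somatic cells condensin II is nuclear and acts from prophase, whereas condensin I reaches the chromosomes after the nuclear envelope breaks down. Both complexes bind meiotic chromosomes in mouse oocytes, and loss of the condensin II kleisin in the oocyte disturbs chromosome structure in meiosis I.

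Transcripts of the 8 condensin genes were followed across meiotic maturation of mouse oocytes, from the germinal vesicle (GV) stage, at which the nucleus is intact and the oocyte is held in prophase of meiosis I, to metaphase of meiosis II (MII). The members were all probe sets that the array annotation assigns to exactly 1 symbol among Smc2, Smc4, Ncaph, Ncapd2, Ncapg, Ncaph2, Ncapd3 and Ncapg2, which gave 20 of the 21646 probe sets tested. Of these, 7 belonged to the shared subunits, 6 to condensin I and 7 to condensin II, and the number per gene ran from 1 for Ncapg2 to 4 for Smc2. MII oocytes, 3 samples, were ovulated oocytes with a visible first polar body, taken from oviducts 14 h after 5 IU of human chorionic gonadotropin. GV oocytes, 3 samples, were taken from large antral follicles and kept in meiotic arrest by 5 µM milrinone, an inhibitor of the oocyte phosphodiesterase PDE3. All mice were 22 to 24 days old and had received 5 IU of equine chorionic gonadotropin, followed after 44 to 46 h by the second hormone or by oocyte collection. The strain is not stated in the labels. Each sample pooled 300 oocytes, of which 10 ng of total RNA was amplified over a pair of rounds and hybridised to 1 short-oligonucleotide array. A value is therefore relative to a fixed mass of RNA, so less of a transcript per oocyte and a change in the oocyte's total RNA cannot be told apart.

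The values are the deposited log2 expression values. Across probe sets, the correlation between arrays was 0.988 to 0.991 within a stage and 0.885 to 0.906 between stages. Array medians were 5.47 to 5.49 in MII and 6.10 to 6.12 in GV samples. As a check of the labelled cell type, the brightest probe sets of all 8 oocyte markers lay above the array median in every GV sample and 7 of 8 in every MII sample, the exception being Ddx4. Of 10 granulosa and cumulus markers 6 had a usable probe set, and their mean level was 4.81 to 4.99 in MII and 5.54 to 5.63 in GV samples. In each stage 2 of the 6 lay above the array median in every sample: Nr5a2 with Inhba in GV and Nr5a2 with Foxl2 in MII. Of these 6 markers 4 were called lower in MII, while the others, Foxl2 and Kitl, were at -0.26 and -0.15. Of the 8 oocyte markers 3 were called lower (Zp2 at -4.26, Zp3 at -2.76 and Ddx4 at -1.01) and Bmp15 higher at 0.69, and their mean level was 10.23 to 10.34 in MII and 11.23 to 11.27 in GV samples. Over all genes, each by its brightest probe set, 37.8% were called lower. The part of follicle cells in the differences below was not tested.

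No difference between the stages was called for most condensin probe sets, and the steep falls were of the condensin I kleisin Ncaph and of 1 probe set each of Smc4 and Smc2. With limma and a threshold of 0.05 on the Benjamini-Hochberg adjusted p (taken over the 21646 probe sets), 5 of the 20 condensin probe sets were called lower in MII, against a background of 34.1% of all tested probe sets. A single probe set, of Ncapg, was called higher, against a background of 10.9%. The 3 MII and 3 GV values did not overlap for 7 of the 20, against 54% of all tested probe sets. The median log2 difference (MII minus GV) was -0.03 over the condensin probe sets and -0.15 over all tested ones. Signals were above the array median in every sample of at least 1 stage for 16 of the 20. For 13 of the 20, none of them called, the 95% interval of the difference lay within 1 log2 unit of 0, that is within 2-fold, as it did for 63.1% of all tested probe sets.

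**Figure D1:**
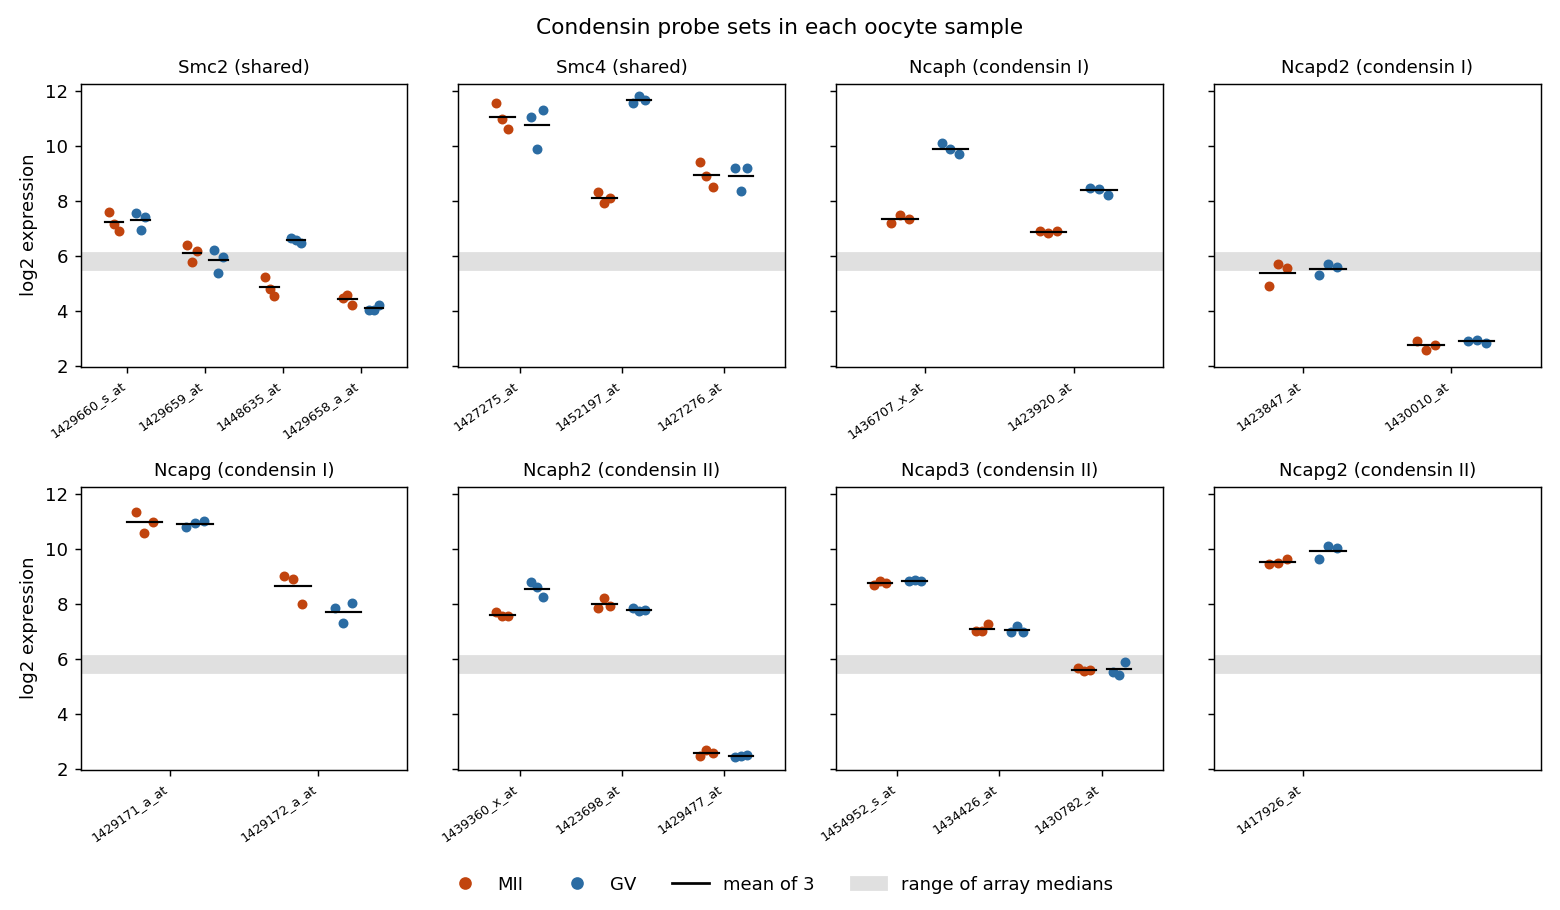
Log2 expression of the 20 condensin probe sets, 1 panel per gene, with the 3 MII samples left of the 3 GV samples, a line at each mean and a grey band for the range of array medians. Both Ncaph probe sets, Smc4 1452197_at, Smc2 1448635_at and Ncaph2 1439360_x_at were lower in every MII sample than in every GV sample, while the 3 Ncapd3 probe sets were nearly level.

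The kleisins close the condensin ring and set which complex is formed. Ncaph, the condensin I kleisin, was lower in MII by both of its probe sets. Probe set 1436707_x_at read 7.20, 7.50 and 7.33 in MII oocytes, against 10.08, 9.87 and 9.72 in GV oocytes. The stages were far apart, with a log2 difference of -2.54 ± 0.15 (SE, 3 samples per stage; limma, Benjamini-Hochberg adjusted p = 4.6e-07), a 5.83-fold fall. The other Ncaph probe set, 1423920_at, read 6.90, 6.82 and 6.91 in MII oocytes, against 8.46, 8.44 and 8.23 in GV oocytes. It fell 2.82-fold, by 1.50 ± 0.13 on the log2 scale (SE; limma adjusted p = 8e-06). All MII values of both probe sets remained above the array medians, and both falls were called in each of the 5 scalings between arrays (the deposited values and 4 others described below). The steeper of these probe sets is of the _x_at type, whose probes may match other transcripts.

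Ncaph2, the condensin II kleisin, gave no single answer. Its probe set 1439360_x_at read 7.69, 7.54 and 7.54 in MII oocytes, against 8.78, 8.63 and 8.25 in GV oocytes. That is a difference of -0.96 ± 0.16 (SE; limma adjusted p = 0.00082), with no overlap between the stages, but the call was lost with array medians made equal (-0.33) and after quantile normalization (-0.37). This probe set too is of the _x_at type, whose probes may match other transcripts. The other bright Ncaph2 probe set, 1423698_at, read 7.85, 8.22 and 7.90 in MII oocytes, against 7.85, 7.74 and 7.77 in GV oocytes. Its difference of 0.20 ± 0.15 (SE) was not called, and its 95% interval ran from -0.13 to 0.53. The third, 1429477_at, was far below the array medians in all samples (2.47 to 2.70 in MII and 2.45 to 2.51 in GV).

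The HEAT-repeat subunits, which bind the kleisin and help anchor the complex to DNA, were mostly level. Ncapd3, of condensin II, differed least. Its brightest probe set, 1454952_s_at, read 8.70, 8.82 and 8.77 in MII oocytes, against 8.82, 8.85 and 8.81 in GV oocytes. The log2 difference was -0.06 ± 0.13 (SE), with a 95% interval from -0.35 to 0.22, and those of 1434426_at and 1430782_at were 0.03 ± 0.14 and -0.00 ± 0.16. None of the 3 was called, and the 3 intervals reached no further than -0.35 and 0.35. The signal of 1430782_at was weak, below the array median in every GV sample.

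Ncapd2, the condensin I counterpart of Ncapd3, had weaker signals, so its values say less. Probe set 1423847_at read 4.90, 5.69 and 5.55 in MII oocytes, against 5.30, 5.72 and 5.59 in GV oocytes. All GV values and 1 MII value lay below the array medians, and the stages overlapped, with a difference of -0.16 ± 0.21 (SE) and a 95% interval from -0.64 to 0.32. The other probe set, 1430010_at, was at 2.60 to 2.91 in MII and 2.83 to 2.94 in GV oocytes, and its difference of -0.14 was not called.

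Ncapg, the second HEAT-repeat subunit of condensin I, held the only rise. Its brightest probe set, 1429171_a_at, read 11.34, 10.57 and 10.97 in MII oocytes, against 10.80, 10.92 and 11.00 in GV oocytes. These overlapped, and the difference of 0.05 ± 0.19 (SE) had a 95% interval from -0.38 to 0.48. Probe set 1429172_a_at read 9.02, 8.92 and 7.98 in MII oocytes, against 7.83, 7.29 and 8.02 in GV oocytes. Here 2 MII samples were above and the third lay just under the highest GV sample, for a difference of 0.92 ± 0.28 (SE; limma adjusted p = 0.023). This call was lost without GV replicate 2 (0.71), without MII replicate 1 (0.73) or without MII replicate 2 (0.78), with no moderation of the variance (adjusted p = 0.15), and with either set of control features made equal (0.52 and 0.05).

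Ncapg2, the condensin II counterpart of Ncapg, was measured by 1 probe set, 1417926_at. It read 9.46, 9.49 and 9.63 in MII oocytes, against 9.63, 10.11 and 10.01 in GV oocytes. The stages just failed to overlap, the lowest GV sample being close to the highest MII sample, and the difference of -0.39 ± 0.16 (SE) was not called (limma adjusted p = 0.071). Without GV replicate 1 it was -0.54 and was called (limma adjusted p = 0.018).

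**Figure D2:**
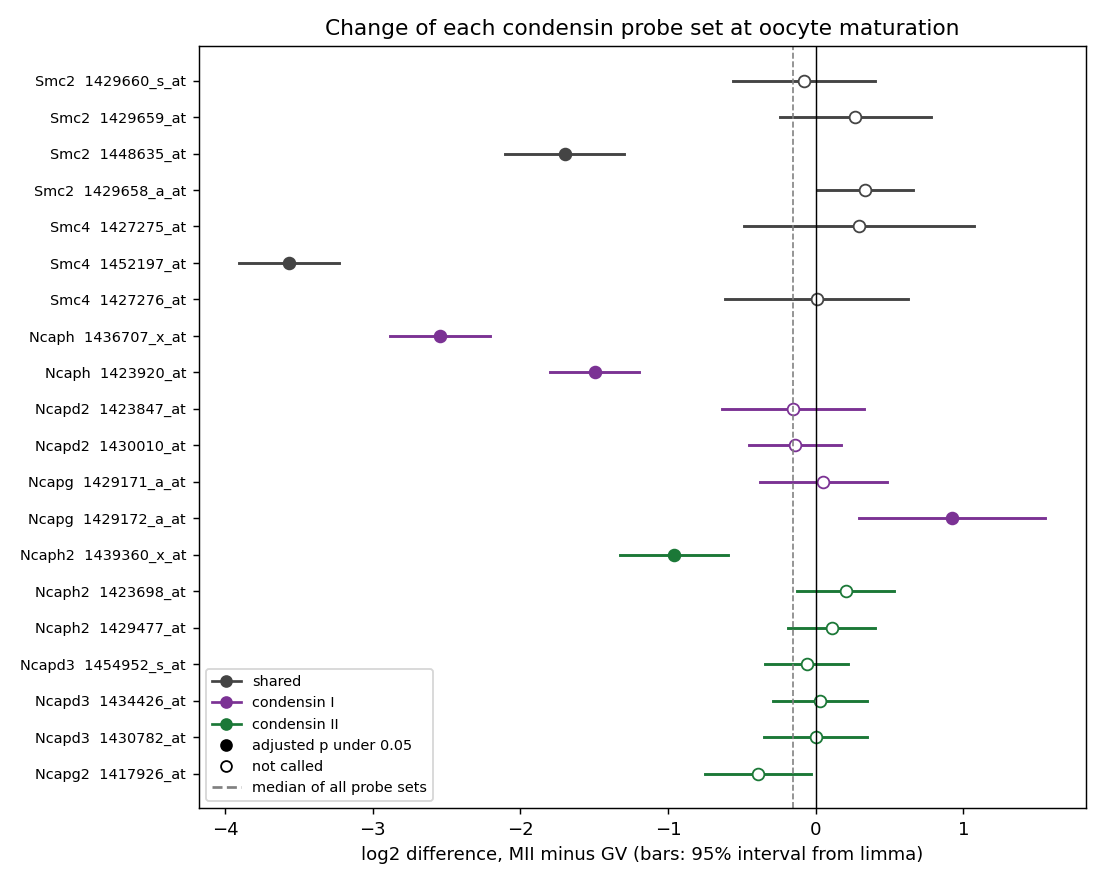
Log2 difference (MII minus GV) of each condensin probe set with its 95% interval from limma, by complex, with filled points for an adjusted p under 0.05 and a dashed line at the median of all tested probe sets (-0.15). Smc4 1452197_at (-3.57) and the Ncaph probe sets (-2.54 and -1.50) lie far to the left, while most others lie around 0.

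The shared ATPase subunits showed the largest disagreement, and it lay within each gene. Smc4 1452197_at read 8.32, 7.90 and 8.09 in MII oocytes, against 11.57, 11.78 and 11.66 in GV oocytes. With a log2 difference of -3.57 ± 0.15 (SE; limma adjusted p = 6.1e-08), an 11.8-fold fall, it was the steepest change among the condensin probe sets, and 1.75% of all tested probe sets had a lower difference. Smc4 1427275_at, in contrast, read 11.55, 10.95 and 10.61 in MII oocytes, against 11.04, 9.89 and 11.29 in GV oocytes. These overlapped, and the difference of 0.29 ± 0.35 (SE) was not called, with a 95% interval from -0.49 to 1.07. Smc4 1427276_at differed by 0.01 ± 0.28 (SE; 95% interval from -0.61 to 0.63). No interval of these 2 probe sets reached down to that of 1452197_at, which ended at -3.23.

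Smc2, which pairs with Smc4 in both complexes, divided in the same manner. Probe set 1448635_at read 5.23, 4.79 and 4.56 in MII oocytes, against 6.64, 6.59 and 6.46 in GV oocytes. It differed by -1.70 ± 0.18 (SE; limma adjusted p = 2.6e-05), a 3.25-fold fall. Every MII value was under the array median and every GV value above it. The brightest Smc2 probe set, 1429660_s_at, read 7.60, 7.14 and 6.92 in MII oocytes, against 7.56, 6.94 and 7.40 in GV oocytes. Its difference was -0.08 ± 0.21 (SE), with a 95% interval from -0.56 to 0.40, and those of 1429659_at and 1429658_a_at were 0.27 and 0.34, neither of them called. The last of these read 4.48, 4.59 and 4.23 in MII oocytes, against 4.04, 4.05 and 4.21 in GV oocytes, all below the array medians.

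Differences between probe sets of the same gene were also taken within each sample, where a shift of a whole array cancels. Of 18 such pairs, compared after the data had been examined, 8 did not overlap between the stages. Each of those 8 had an exact 2-sided permutation p of 0.1, the smallest that 3 against 3 samples allow. Each also held a probe set already called lower, and some pairs share a probe set. The 8 are therefore not separate from those calls or from each other. The share of such pairs over all genes was not computed. Smc4 1427275_at minus 1452197_at was 3.23, 3.05 and 2.52 in MII samples, against -0.52, -1.89 and -0.37 in GV samples. That pair moved by 3.86 log2 units between the stages, the most of the 18. Smc4 1427275_at minus 1427276_at moved by 0.29, with overlap. Some of the spread among the level SMC probe sets came from the same samples. In GV replicate 2, Smc4 1427275_at and 1427276_at were 0.85 and 0.56 below their GV means (deviations of -0.85 and -0.56), and Smc2 1429659_at and 1429660_s_at deviated by -0.46 and -0.36, while Smc4 1452197_at deviated by 0.11. In MII replicate 1 the same 4 probe sets were above their stage means, by 0.51, 0.48, 0.27 and 0.38. The falling Smc4 1452197_at and Smc2 1448635_at were above theirs there too, by 0.22 and 0.37. The other level probe set, Smc2 1429658_a_at, deviated by only -0.04 in GV replicate 2 and 0.05 in MII replicate 1.

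To set condensin I against condensin II, each condensin I subunit was compared with its condensin II counterpart in the same sample, through the brightest probe set of each. The absolute value of such a difference has no meaning across probe sets, so only its shift between the stages is read. Ncaph minus Ncaph2 was -0.49, -0.04 and -0.21 in MII samples, against 1.30, 1.24 and 1.47 in GV samples. The difference shifted by -1.59 log2 units, with no overlap between the stages (exact 2-sided permutation p = 0.1, the smallest possible, and 0.3 after Benjamini-Hochberg adjustment over the 3 pairs). The shift ran from -1.46 to -1.69 when 1 sample at a time was left out, and it was -1.70 with probe sets of the _s_at and _x_at types removed.

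By the brightest probe sets, the HEAT-repeat pairs did not separate the stages. Ncapd2 minus Ncapd3 shifted by -0.09 (exact permutation p = 0.7), with overlapping values. Ncapg minus Ncapg2 was 1.88, 1.07 and 1.35 in MII samples, against 1.17, 0.81 and 0.99 in GV samples. That shift of 0.44, opposite in sign to that of the kleisins, overlapped between the stages as well (exact permutation p = 0.2; adjusted over the 3 pairs, 0.3).

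Averaged over the 3 non-SMC subunits, each by its brightest probe set, condensin I moved by -0.88 and condensin II by -0.47 log2 units. Both averages are those of the deposited scale and move with any shift of a whole array. That of condensin II includes Ncaph2 1439360_x_at (-0.96), while Ncaph2 1423698_at was at 0.20 and not called. The within-sample difference of these means was -0.80, -0.70 and -0.70 in MII samples, against -0.35, -0.36 and -0.25 in GV samples, a shift of -0.41 that is given as a description with no test. Its sign rested on the kleisins: without Ncaph and Ncaph2, a choice made after the data had been examined, the shift was 0.17, of opposite sign. The difference without them was -0.96, -1.03 and -0.94 in MII samples, against -1.17, -1.16 and -1.12 in GV samples. These values did not overlap between the stages, and they too are given with no test. Of the 6 condensin I probe sets 2 were called lower and 1 higher, and of the 7 condensin II probe sets 1 was called lower and none higher. These are 33.3% lower and 16.7% higher for condensin I and 14.3% lower for condensin II, beside 34.1% lower and 10.9% higher over all tested probe sets, so the share of condensin I called lower was close to the background. The difference between the complexes in these shares was not tested.

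**Figure D3:**
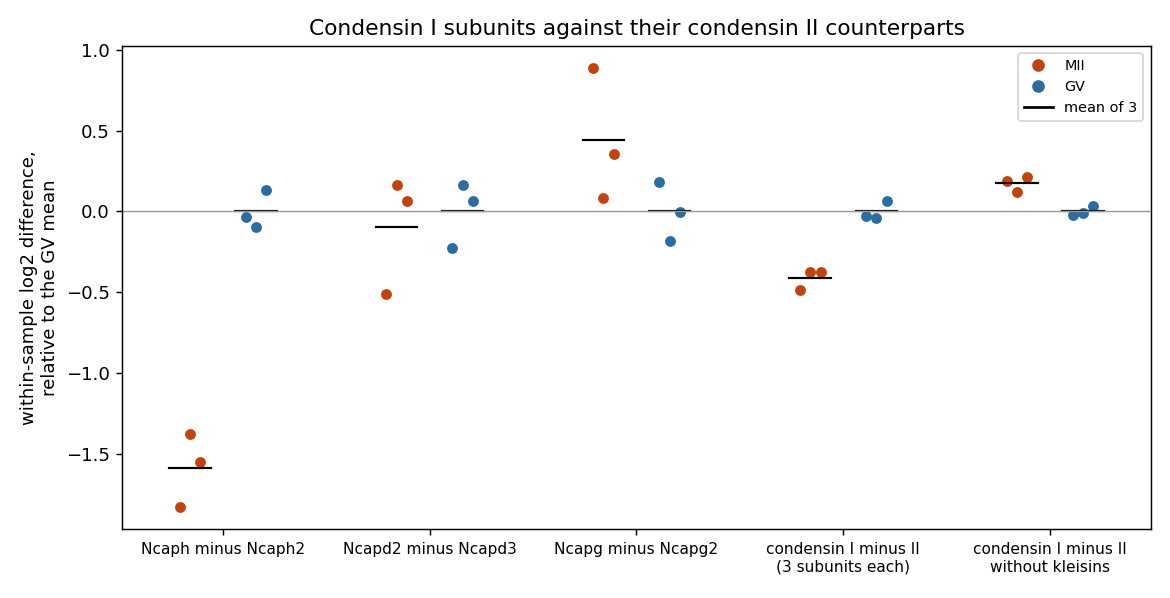
Within-sample log2 difference between each condensin I subunit and its condensin II counterpart, and between the means of the complexes, drawn relative to the GV mean, with the 3 MII samples left of the 3 GV samples and a line at each mean. The kleisin pair shifted by -1.59, while the complex means shifted by -0.41 with the kleisins and by 0.17 without them.

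The number of condensin probe sets called moved with the scale chosen between arrays, as did the number over all tested probe sets. With array medians made equal, which moved the median difference of all tested probe sets by 0.62, 12 of the 20 condensin probe sets were called higher and 4 lower, beside 55.5% higher and 19.9% lower over all tested probe sets. Quantile normalization, with a shift of 0.34, gave 8 higher and 4 lower, beside 34.8% and 22.1%. Setting the hybridization controls equal moved that median by -0.40 and gave 5 lower and none higher, beside 33.2% lower and 0.48% higher. Setting the poly-A controls equal moved it by -0.87 and gave 19 lower and none higher, beside 84.9% lower and 0.30% higher. The hybridization controls themselves varied among the GV arrays, with an SD of 0.50. Only 4 probe sets were called in the same direction in all 5 scalings: Smc4 1452197_at (-4.44 to -2.94), Ncaph 1436707_x_at (-3.42 to -1.92), Ncaph 1423920_at (-2.37 to -0.87) and Smc2 1448635_at (-2.57 to -1.08). The 3 Ncapd3 probe sets, level as deposited, were called higher with equal medians (0.56 to 0.65) and lower with equal poly-A controls (-0.93 to -0.84), so their small differences are those of the deposited scale.

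**Figure D4:**
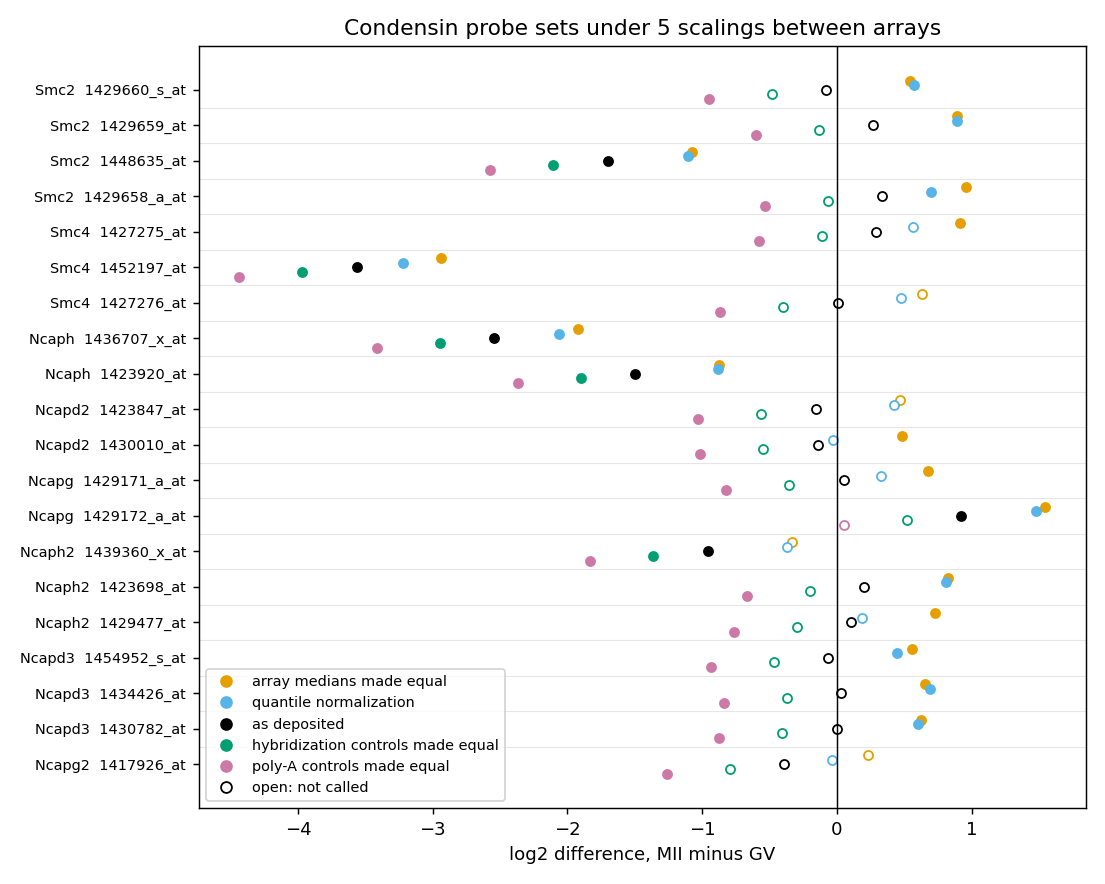
Log2 difference (MII minus GV) of each condensin probe set under the 5 scalings between arrays, with filled points where the adjusted p was under 0.05. The probe sets of Ncaph, Smc4 1452197_at and Smc2 1448635_at stay left of 0 and filled throughout, while 14 of the 20 change sign with the scaling.

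Most of the listed genes that load, modify or work beside condensin were lower in MII on the deposited scale. The list was chosen with earlier results of these data known, so its share called lower is a description and was not tested. Of 20 listed partners and regulators, 19 had a usable probe set, and by the brightest probe set of each 14 were called lower and 1 higher (limma), with a median difference of -1.26. Over all 11429 genes taken in the same way 37.8% were called lower and 10.5% higher, with a median of -0.20, and over the 8 condensin genes 2 were lower and none higher, with a median of -0.12. The steepest fall was that of Top2a, the topoisomerase that untangles sister DNA, which read 4.31, 4.67 and 5.35 in MII oocytes, against 8.70, 9.09 and 8.77 in GV oocytes (-4.08 ± 0.24, SE; limma adjusted p = 4.5e-07). Phf8, a histone demethylase, was at -3.02, Akap8, a nuclear anchoring protein that recruits condensin, at -2.49 and Ppp2ca, the catalytic subunit of protein phosphatase 2A, at -1.95, all called lower. In MII, Top2a and Akap8 lay below the array median in every sample, and Phf8 lay above it in 2 of 3. Of the 14 partners called lower, 3 had another probe set called higher: Phf8 (1 probe set, 0.84), Cdca2 (1 probe set, 1.22) and Csnk2a1 (2 probe sets, 0.39 and 0.49), of which the last 2 genes are named because their probe sets disagreed. The brightest probe sets of Cdca2 and Csnk2a1 were at -1.80 and -0.36. The second probe sets of Top2a and Ppp2ca were not called. Aurkb, named for the same reason, was not called at 0.17 by its brightest probe set. Its other probe set was called lower at -0.64 (limma adjusted p = 0.0099). The single rise was that of Aurkc, the Aurora kinase of germ cells, at 0.47 ± 0.17 (SE; limma adjusted p = 0.042).

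The genes whose brightness ran most like that of the steepest and of the rising condensin probe set were found by Pearson correlation over the 6 samples, as a description. For Smc4 1452197_at these were Flot2, Atp6v1a and A730082K24Rik, each at r of 1.00 after rounding, with differences of -3.12, -2.67 and -3.10. For Ncapg 1429172_a_at they were Pard6g, Rad51ap1 and Ptprr (r = 0.990, 0.990 and 0.989), none of which was called. With 6 samples in 2 stages, such values mostly reflect the difference between the stages and the arrays that all probe sets share.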

How the data were processed

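The authors deposited log2 expression values for 21702 probe sets. RMA and affy are named, without versions or settings, in the submitters' processing notes. Any filter and the genome build were not given in the sources used here. The 6 arrays hold the same 7077 distinct values, from 1.85 to 13.3. The 56 control features were set aside. Of the 21646 tested probe sets 19078 had 1 gene symbol, 550 several and 2018 none. All 8 condensin symbols were found among RefSeq genes (GRCm38.p6), which served for names only. Probe set targets and protein sequences were not used here.

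Stages were compared on the deposited log2 values with limma 3.58.1 (R 4.3.3; lmFit, eBayes, 2-sided, stage as the only term). Benjamini-Hochberg adjustment ran over the 21646 probe sets, with no intensity filter. The fit was tested on simulated data. No measure of background was used, so weak signals are marked by the array medians, and the number of arrays limits precision. Within-sample differences were tested by exact permutation over samples. The design text states biological replicates.

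The members and gene lists were chosen with earlier results of these data known. Lists were compiled from general knowledge, and each gene was represented by its brightest probe set. Every condensin probe set is named; in other lists up to 4 called falls and 4 called rises of the largest size are named. Alternatives were 4 other scalings between arrays (equal medians, quantile, 18 hybridization and 21 poly-A control features), the variance model, an intensity filter, probe set types, replicate numbers as a block and leaving out each sample. For the pairs and the complexes, the mean of all probe sets of each gene was also taken.

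Deviations from the stage means correlated at 0.09, 0.03 and 0.03 between samples of the same replicate number, so the numbers were not treated as pairs.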

Additional observations from a re-analysis of the deposited data

How the results depend on the processing

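The falls of Smc4 1452197_at, Smc2 1448635_at and both Ncaph probe sets kept their direction and their call under every alternative in which they were tested, but Smc2 1448635_at was outside the fit restricted to probe sets above the median, and Ncaph 1436707_x_at was not tested in the fit without _s_at and _x_at probe sets. The number of condensin probe sets called higher was 12 with equal array medians, 8 after quantile normalization, 0 with equal hybridization controls, equal poly-A controls or no moderation, and 0 to 1 when a sample was left out. The number called lower was 19 with equal poly-A controls and 3 without _s_at and _x_at probe sets. Over all tested probe sets, 12016 were higher and 4306 lower with equal medians, 7538 and 4794 after quantile normalization, 104 higher with equal hybridization controls, 65 and 18380 with equal poly-A controls, 1279 higher with no moderation, 4438 lower among probe sets above the median, and 1547 to 2127 higher without 1 sample. With the replicate number as a replicate block, 2400 were higher and 7300 lower, and it changed no call among the condensin probe sets. The shift of condensin I against condensin II was -0.48 without _s_at and _x_at probe sets and 0.17 without the kleisins.

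Signs turned only for condensin probe sets not called as deposited, 39 times in all, and 15 of the turned differences were called. With equal array medians Smc2 1429660_s_at was at 0.55, Ncapd2 1423847_at at 0.47 and 1430010_at at 0.48, Ncapd3 1454952_s_at at 0.56 and 1430782_at at 0.62, and Ncapg2 at 0.23. After quantile normalization Smc2 1429660_s_at was at 0.57, Ncapd2 1423847_at at 0.42, and Ncapd3 1454952_s_at at 0.44 and 1430782_at at 0.60. With equal hybridization controls Smc2 1429659_at was at -0.14 and 1429658_a_at at -0.069, Smc4 1427275_at at -0.11 and 1427276_at at -0.40, Ncapg 1429171_a_at at -0.35, Ncaph2 1423698_at at -0.20 and 1429477_at at -0.30, and Ncapd3 1434426_at at -0.37. With equal poly-A controls the same 8, in the same order, were at -0.60, -0.54, -0.58, -0.87, -0.82, -0.67, -0.77 and -0.84. Leaving out 1 sample gave -0.27 to 0.073 for Smc2 1429660_s_at, -0.13 to 0.57 for Smc4 1427275_at, -0.28 to 0.23 for Smc4 1427276_at, -0.31 to 0.084 for Ncapd2 1423847_at, -0.14 to 0.25 for Ncapg 1429171_a_at, -0.049 to 0.10 for Ncapd3 1434426_at, -0.093 to 0.14 for Ncapd3 1430782_at and -0.22 to 0.11 for the shift of Ncapd2 against Ncapd3. Apart from quantile normalization, each scaling shifts all probe sets of an array together, and which scale holds for the oocyte was not tested. Weak signals limit Ncapd2, Ncaph2 1429477_at and Smc2 1429658_a_at. Ncapd3 1430782_at in every GV sample and Smc2 1448635_at in every MII sample were also below the array medians. Having 3 arrays per stage limits every comparison.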

Other observations

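Cohesin and SMC5/6 are the other SMC complexes. Of 15 listed genes 14 had a usable probe set, and by the brightest of each 6 were called lower and 2 higher by limma, with a median log2 difference (MII minus GV) of -0.31, beside -0.20 over all genes. These are 42.9% lower and 14.3% higher, near the 37.8% and 10.5% of all genes taken in the same way. The steepest fall was that of Smc1a, a core cohesin ATPase, which read 6.68, 6.73 and 6.96 in MII oocytes, against 8.52, 8.92 and 8.69 in GV oocytes (-1.92 ± 0.15, SE; limma adjusted p = 3.6e-06). Its other probe sets were at 0.46 and 0.23, neither of them called. Smc1b, its meiotic counterpart, was at -1.60, Smc5 at -1.01 and Nsmce1, a ubiquitin ligase of the SMC5/6 complex, at -0.76, all called lower. Rad21, the mitotic cohesin kleisin, was called higher at 0.58 ± 0.15 (SE; limma adjusted p = 0.0084), as was Nsmce4a, the SMC5/6 kleisin, at 0.58. Of the 6 genes not called, 2 had other probe sets called higher, and they are named because their probe sets disagreed. Smc6, the ATPase that pairs with Smc5, was at 0.10 by its brightest probe set, while its 3 other probe sets were called higher at 0.56 to 1.06. Stag1, a cohesin subunit, was at 0.26, while 1 of its 5 other probe sets was called higher at 0.36. The Smc1b and Smc5 signals lay below the array medians in every sample.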
